A study of Mus musculus with 6 samples.

Results

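The 85 cytosolic ribosomal protein genes described here were the entries of the expression table whose symbol fits a set pattern. The pattern covers proteins of the large subunit (Rpl, including Rplp0, Rplp1 and Rplp2) and of the small subunit (Rps, including Rpsa). Symbols ending in -ps, the Rps6k kinases and a few ribosomal protein genes with other symbols were left out. They were 85 of 13886 genes listed, with 50 of the large and 35 of the small subunit. The rule used no measured value, though earlier results of these data were known when it was set. GENCODE annotated 80 of the 85 as protein-coding and 5 as pseudogenes (Rps4l, Rpl32l, Rpl6l, Rps3a2 and Rps3a3).

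The series measured macrophages from the livers of mice on CDA-HFD, a choline-deficient diet rich in fat that induces steatohepatitis and fibrosis. Macrophages were sorted in the study as CD11b+ Ly6G- Ly6C-low F4/80+ cells, and the methods give male mice 6 to 12 weeks old. The 2 groups were Egr2fl/fl, which carry both floxed alleles of the transcription factor gene Egr2 and no Cre, and Lyz2cre/+.Egr2fl/fl, which carry the same floxed alleles and Cre at 1 allele of Lyz2, a gene active in myeloid cells; each had 3 libraries labelled as biological replicates. The weeks on diet are not in the labels. Both groups were on the diet, and as the Egr2fl/fl mice carry no Cre, an effect of Cre or of the lost Lyz2 allele cannot be told apart from the loss of Egr2. Egr2 itself was at 123, 120 and 126 TPM (a relative abundance scaled for gene length and library total) in Egr2fl/fl and at 9.08, 9.64 and 10.5 TPM in Lyz2cre/+.Egr2fl/fl libraries.

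Ribosomal proteins assemble with ribosomal RNA into the small subunit, which decodes messenger RNA, and the large subunit, which joins amino acids and passes the chain through an exit tunnel. Their genes are among the most strongly and evenly transcribed of a cell. Their messenger RNAs typically begin with a C followed by a run of pyrimidines, the terminal oligopyrimidine (TOP) start, through which mTORC1 and LARP1 control their translation. Processed pseudogenes, reverse-transcribed copies of these short messages, are numerous in mammalian genomes.

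The annotated starts of 5 members are shown because they hold the motif that the family shares, or, for Rpl39 and Rps19, because the results below turn on these genes. Each is 30 bases of GRCm38.p6 from RefSeq, 15 before and 15 from the annotated first base on, and capitals mark an unbroken run of C and T that includes that first base.
Rps6, chr4:86857353-86857382, minus strand: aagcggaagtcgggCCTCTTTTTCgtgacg
Rps27, chr3:90213634-90213663, minus strand: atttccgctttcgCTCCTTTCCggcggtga
Rplp2, chr7:141447636-141447665, plus strand: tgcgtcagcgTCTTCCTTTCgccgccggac
Rpl39, chrX:37085208-37085237, minus strand: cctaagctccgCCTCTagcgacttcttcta
Rps19, first of 3 annotated starts, chr7:24884577-24884606, plus strand: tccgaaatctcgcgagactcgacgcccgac
A start entry was found for 61 of the 85 genes. Of these, 14 (23.0%) began with C followed by at least 4 C or T, against 3.01% of the 27025 genes of that start table. Within 10 bases of the annotated start such a run was found in 37 of the 61 (60.7%), against 34.4% of all genes. The run of Rpl39 ends on its annotated first base, a T, and that of Rps19 is missing because its annotated first base is a G. A missing match says only that these letters are not at the annotated start.

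Transcripts of these genes made up a large share of the macrophage transcriptome. Their summed level was 78100, 80086 and 80277 TPM in Egr2fl/fl libraries 1, 2 and 3, and 77514, 76605 and 76127 TPM in Lyz2cre/+.Egr2fl/fl libraries 1, 2 and 3. Every Lyz2cre/+.Egr2fl/fl library was below every Egr2fl/fl library, but the gap between the nearest libraries was small. Under median-of-ratios scaling the groups overlapped, with sums of 76629, 83104 and 82579 in Egr2fl/fl and 75535, 77265 and 72482 in Lyz2cre/+.Egr2fl/fl libraries. The means were 79488 ± 1205 and 76749 ± 704 TPM (SD, n = 3 each), a ratio of 0.966, or 7.97% and 7.70% of all TPM listed. These sums are given without a test. In bulk RNA, fewer cells of a type and less of a transcript per cell cannot be told apart.

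**Figure D1:**
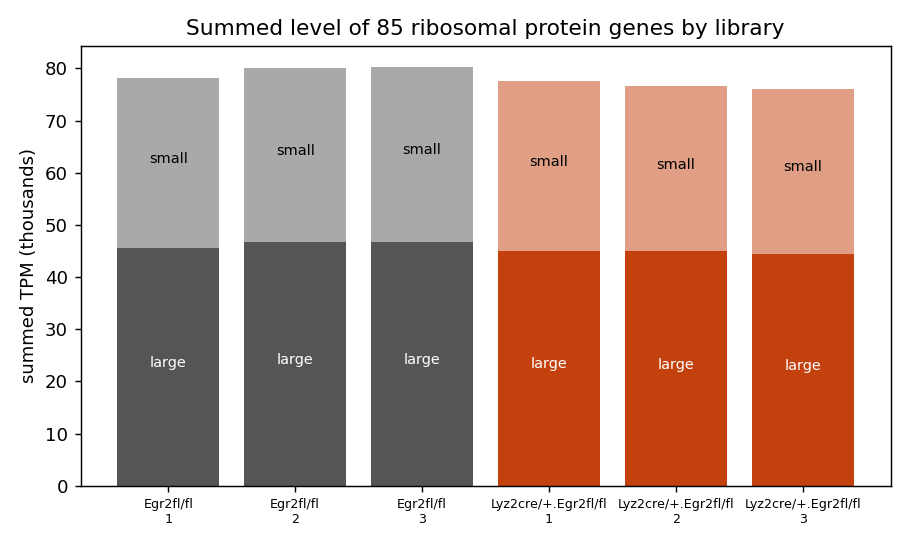
Stacked bars give the summed level (in units of 1000 TPM) of the large subunit genes (solid) and the small subunit genes (pale) in each of the 6 libraries, grey for Egr2fl/fl and orange for Lyz2cre/+.Egr2fl/fl. The totals lie between 76127 and 80277 TPM, with the 3 orange bars slightly lower.

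The ratio of summed large to summed small subunit TPM was 1.40, 1.40 and 1.39 in Egr2fl/fl and 1.38, 1.42 and 1.40 in Lyz2cre/+.Egr2fl/fl libraries. The group means of this ratio, 1.40 and 1.40, differed by less than the spread between libraries.

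The level of single members ranged from 1.73 to 2779 mean TPM, with a median of 837. Of the 85 genes, 34 exceeded 1000 TPM, 43 lay between 100 and 1000 TPM and 8 were below 100 TPM, while 129 of all genes listed exceeded 1000 TPM. The 6 most abundant were Rplp1 and Rplp0, both of the stalk that recruits translation factors, Rpl10, which sits near the centre where peptide bonds form, Rpl13, Rps4x and Rps2. Rplp1 was at 2842, 2900 and 2661 TPM in Egr2fl/fl and at 2873, 2740 and 2656 TPM in Lyz2cre/+.Egr2fl/fl libraries. Rplp0 was at 2339, 2458 and 2349 TPM, and at 2434, 2331 and 2325 TPM. In both genes the groups overlapped.

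To ask whether the deletion changed these genes, log2(TPM + 1) was compared between the groups with limma over the 13777 genes whose mean TPM was 1 or more, and the p-values were adjusted by Benjamini-Hochberg over all of them. All 85 members were among those tested. At an adjusted p below 0.05, 6.24% of all genes tested differed, 4.38% higher and 1.87% lower in Lyz2cre/+.Egr2fl/fl. Among the members 1 was called lower and 0 higher, so 84 did not pass. At an unadjusted p below 0.05, 10 members were lower and 0 higher, against 896 lower and 1808 higher of all genes tested. The called member was Rpl39, whose protein lines the exit tunnel of the large subunit. The gene lies at chrX:37082520-37085402 on the minus strand, and Rps19 at chr7:24884371-24889806 on the plus strand, in the GENCODE annotation of GRCm38.

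Rpl39 lay at 558, 544 and 585 TPM in Egr2fl/fl and at 477, 466 and 439 TPM in Lyz2cre/+.Egr2fl/fl libraries. The groups did not overlap. The means were 562 ± 20.8 and 461 ± 19.8 TPM (SD, n = 3 each), and by limma the log2 difference was -0.29 (95% interval -0.41 to -0.17, adjusted p = 0.0216). The call was lost in 5 of the 6 fits that left out 1 library, the exception being Egr2fl/fl replicate 2, with adjusted p-values of 0.0577 to 0.0711 in limma where it was lost. Rps19, a small subunit protein whose human gene is the most often mutated in Diamond-Blackfan anaemia, was nearest to it. It was at 604, 610 and 625 TPM in Egr2fl/fl and at 546, 549 and 505 TPM in Lyz2cre/+.Egr2fl/fl libraries. Its groups did not overlap either, and its log2 difference was -0.20 (95% interval -0.32 to -0.09), with an adjusted p of 0.0602 in limma.

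**Figure D2:**
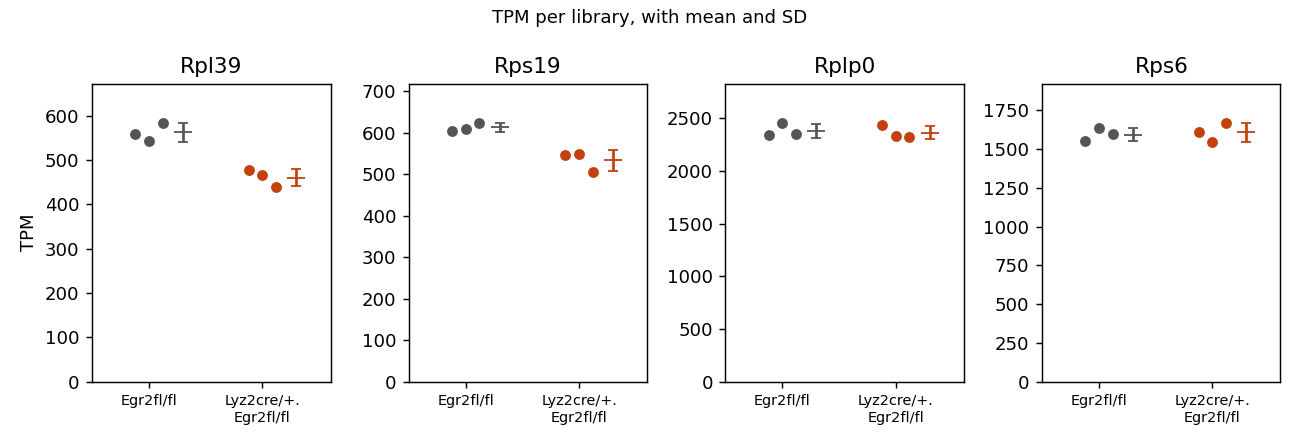
Points give the TPM of Rpl39, Rps19, Rplp0 and Rps6 in each library (grey Egr2fl/fl, orange Lyz2cre/+.Egr2fl/fl), and the bar beside them the mean and SD of 3 libraries. Rpl39 and Rps19 do not overlap between the groups, while Rplp0 and Rps6 do.

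The median log2 difference of the 85 was -0.05, against 0.04 over all genes tested. It was -0.05 for the large and -0.07 for the small subunit. The difference was below 0 in 64 members and above 0 in 21, against 5743 below and 8034 above of the 13777 genes tested. The 64 became 61 under quantile scaling and 78 under median-of-ratios scaling. The difference was smaller than 0.1 in either direction in 55 of the 85 (64.7%), against 36.5% of all genes tested. The 95% interval lay wholly within 0.25 log2 units of 0 in 61 members and within 0.5 in 75, against 1837 and 7050 of all genes tested. The median standard error was 0.05 in the members and 0.13 over all genes tested. Their median levels were 837 and 17.7 TPM. The part of abundance in this precision was not tested.

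In 20 members (23.5%) every Lyz2cre/+.Egr2fl/fl library was below every Egr2fl/fl library, against 8.27% of all genes tested, and in 1 (Rpl37, named after its values were seen) every one was above, against 17.0%. Levels of members rise and fall together with the library, so these are not separate observations: 45 members were highest in Egr2fl/fl replicate 3, and 32 were lowest in Lyz2cre/+.Egr2fl/fl replicate 3. Gene length moved with the differences among genes that are not members. This set included 254 tested pseudogene copies of members, with a median length of 481 bases and a median log2 difference of -0.06, so it was not separate from the family. Length here joins all annotated exons of a gene, so it can exceed the length of its messenger RNA. Among genes that are not members the median log2 difference was -0.05 for exon lengths under 1000 bases (1997 genes) and 0.01 for lengths from 1000 to 2000 bases (1560 genes). It was 0.06 for lengths of 4000 bases and more (6257 genes). On this measure the members had a median exon length of 1739 bases, which is not that of their messenger RNAs. The part of length in the members' differences was not tested.

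**Figure D3:**
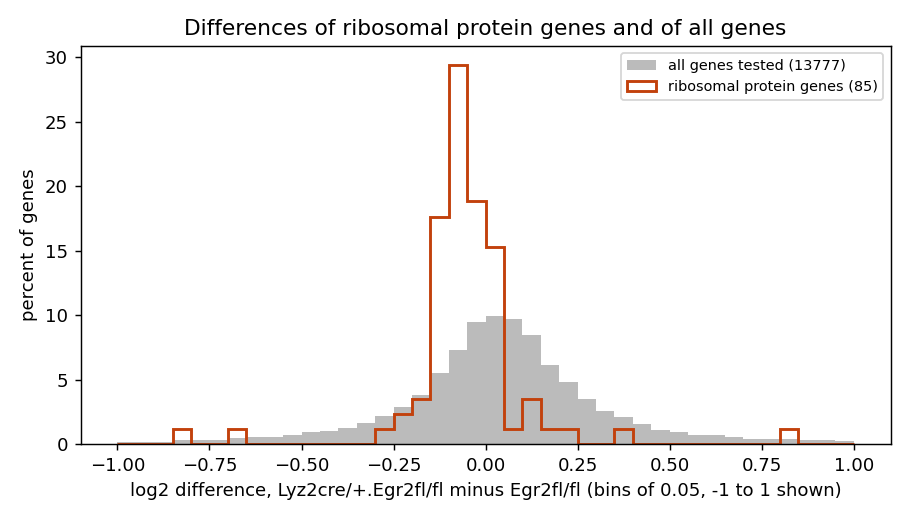
Histograms of the log2 difference (Lyz2cre/+.Egr2fl/fl minus Egr2fl/fl, bins of 0.05, values from -1 to 1 shown) as percent of genes, for the 13777 genes tested (grey) and the 85 ribosomal protein genes (orange line). The ribosomal protein genes form a narrow peak just below 0, at a median of -0.05.

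**Figure D4:**
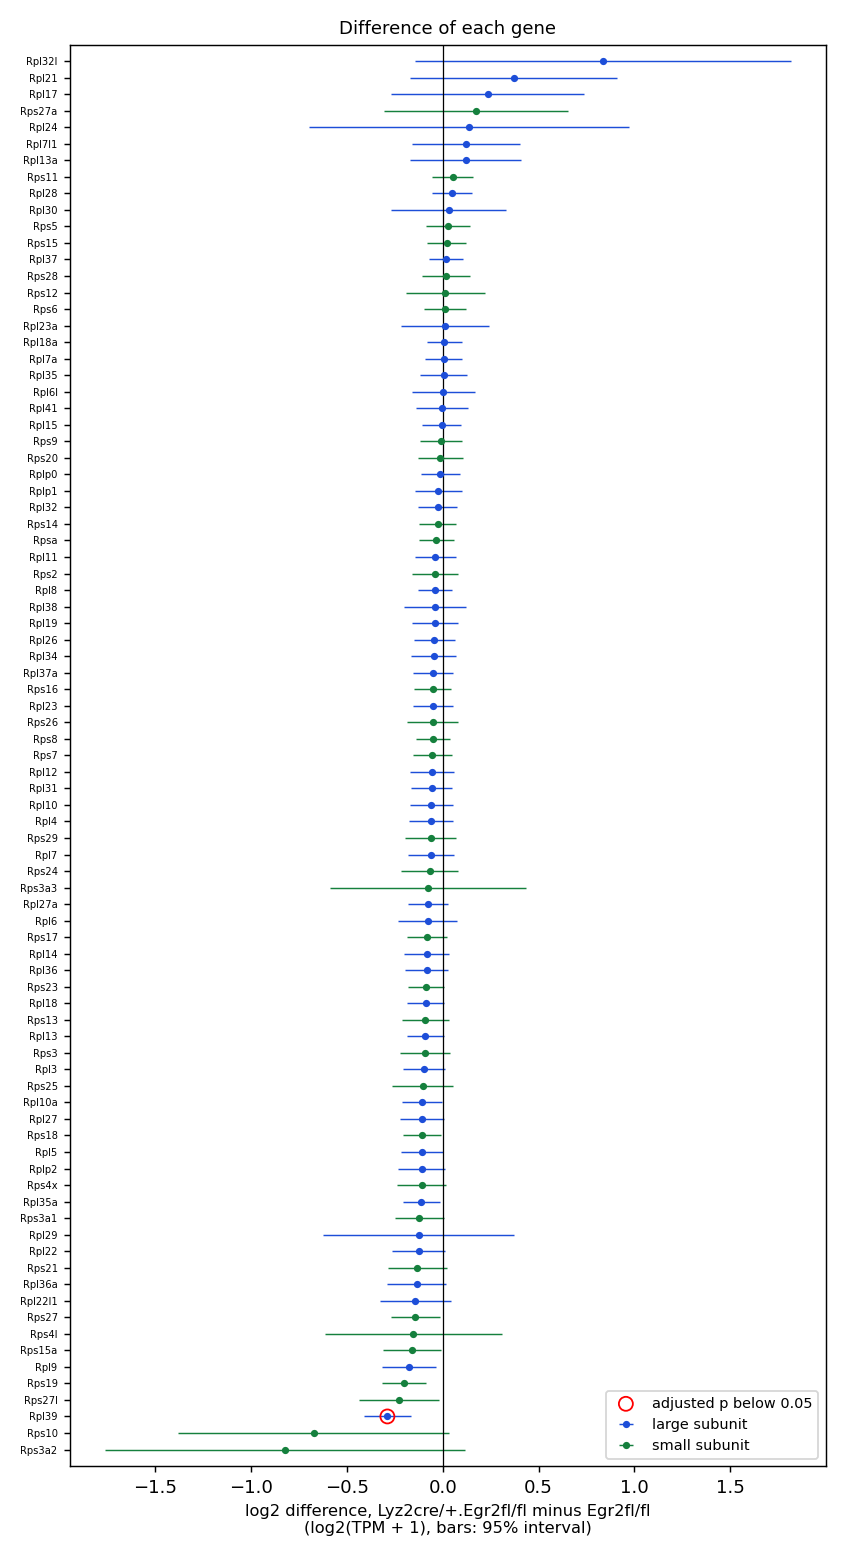
Points give the log2 difference of each of the 85 genes with its 95% interval, blue for the large and green for the small subunit, ordered by size. Rpl39 (red circle) is the 1 member past the threshold, and the widest intervals belong to Rpl32l, Rps3a2, Rpl24 and Rps10.

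Members with well known further roles did not pass the threshold. Rpl5 and Rpl11, which bind Mdm2 and so stabilise p53 when ribosome assembly is disturbed, had log2 differences of -0.11 and -0.04. Rps6, the substrate of the S6 kinases, was at 1549, 1635 and 1595 TPM in Egr2fl/fl and at 1608, 1546 and 1670 TPM in Lyz2cre/+.Egr2fl/fl libraries, and the groups overlapped. Rps3, also known as a DNA repair factor, had a log2 difference of -0.09, Rpsa, also known as a laminin receptor, -0.03, and Rps26, another Diamond-Blackfan gene, -0.05. Rplp2, the third stalk protein, had a log2 difference of -0.11. None of these passed the threshold in limma, with adjusted p-values from 0.255 for Rpl5 to 0.921 for Rps6.

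Genes named as second copies of a ribosomal protein gene did not pass either. Rps27l, a paralogue of Rps27 known as a p53 target, was at 271, 267 and 307 TPM in Egr2fl/fl and at 268, 231 and 222 TPM in Lyz2cre/+.Egr2fl/fl libraries. The groups overlapped by 1 library, with a log2 difference of -0.23 (adjusted p = 0.211, limma). Its partner Rps27 had a log2 difference of -0.14 (adjusted p = 0.199, limma). Rpl22l1 and its partner Rpl22 had log2 differences of -0.14 and -0.13, and Rpl7l1 and Rpl7 of 0.12 and -0.06. Rps4l, annotated as a pseudogene, had -0.15 beside -0.11 for Rps4x. Rpl3 had a log2 difference of -0.10 and Rpl10 of -0.06; Rpl3l, Rpl10l and Rpl39l were not analysed here.

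Some of the largest differences belonged to members with few reads. Whole reads could be recovered from the steps of the TPM values, as lower bounds, and gave 79 reads over the 6 libraries for Rps3a2, 38 for Rps10 and 29 for Rpl32l. Rps3a2 was at 4.46, 5.32 and 13.7 TPM in Egr2fl/fl and at 2.28, 4.26 and 4.31 TPM in Lyz2cre/+.Egr2fl/fl libraries (log2 difference -0.82, 95% interval -1.76 to 0.11). Rpl32l was at 5.17, 0.960 and 2.55 TPM in Egr2fl/fl and at 6.34, 3.75 and 5.99 TPM in Lyz2cre/+.Egr2fl/fl libraries. Its log2 difference of 0.84 (95% interval -0.15 to 1.82) was the largest of the 85 in either direction and did not pass. Rps10, a small subunit gene, was at 0.838 to 3.61 TPM while its processed copy Rps10-ps2 was at 470 to 544 TPM. With the TPM of its copies added, Rps10 had a log2 difference of 0.05 instead of -0.67. Rpl24 stood at 1.31 to 4.53 TPM beside copies at 17.1 to 41.7 TPM (Rpl24, Rpl29, Rpl30, Rps12 and the copies were chosen after their values were seen). Unlike Rps10, it stayed low with its copies added, at 21.6 to 44.2 TPM against a median of 837 TPM for the members alone.

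Reads of a member and of its pseudogenes could not be told apart by the values, and the handling of reads with several matches is not stated. The table listed 258 pseudogene copies, of at least 90% identity to a member over at least 70% of their length, of 73 members. Their median identity was 98.8%, and 113 were at least 99% identical. To show how little separates them, 30 coding bases of 2 members and of the copies that stood out are given from GENCODE transcripts, with the differing bases in capitals.
Rpl30 (chromosome 15): cgtgctgggctacaaGcagactctgaagat
Gm12191 (chromosome 11): cgtgctgggctacaaAcagactctgaagat
Rpl29 (chromosome 9): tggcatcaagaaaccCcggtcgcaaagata
Gm8210 (chromosome 1): tggcatcaagaaaccAcggtcgcaaagata
The Gm12191 transcript differs from Rpl30 at 1 of 348 aligned bases, and that of Gm8210 from Rpl29 at 3 of 483.

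In Egr2fl/fl replicate 3, Rpl17 and Rpl30 were low while their copies were high. Rpl17 was at 699, 712 and 394 TPM in Egr2fl/fl libraries 1, 2 and 3 and at 705, 682 and 666 TPM in Lyz2cre/+.Egr2fl/fl libraries, while its copies summed to 403, 407 and 1082 TPM and to 441, 462 and 399 TPM. Rpl30 was at 435, 431 and 311 TPM and at 412, 391 and 388 TPM, while its copies summed to 31.4, 27.5 and 398 TPM and to 33.3, 44.2 and 33.4 TPM. Gm12191 alone was at 218 TPM in that library and at 16.5 to 21.6 TPM in the others. Rpl21, Rps27a and Rps12 were also lowest there, at 72.7, 579 and 918 TPM, whereas the other 5 libraries ranged from 131 to 149, from 807 to 1045 and from 1057 to 1145 TPM. The copies of Rps27a and Rps12 were highest in that library, at 134 and 28.2 TPM, but those of Rpl21, at 428 TPM, were below the 442 and 650 TPM of 2 other libraries. With the TPM of the copies added, that library deviated from the mean of the other 5 by -0.18 log2 units for Rpl21, -0.48 for Rps27a and -0.24 for Rps12. For Rpl17 and Rpl30 it deviated by 0.40 and 0.67. TPM are scaled for gene length, and the median exon length was 481 bases in the tested copies and 1739 in the members. A read thus weighs more at a shorter copy, so these added levels do not count reads. Whether reads of member and copies balance in that library was not tested. The log2 differences of Rpl21, Rpl17 and Rps27a were 0.37, 0.24 and 0.17 with this library, and 0.07, -0.04 and -0.07 without it, and none passed.

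Lyz2cre/+.Egr2fl/fl replicate 1 stood apart at other genes. Rpl29 was lowest in Lyz2cre/+.Egr2fl/fl replicate 1 (528 TPM), then in Egr2fl/fl replicate 3 (670 TPM), and between 865 and 901 TPM in the other 4. Its log2 difference was -0.13, and 0.12 without Lyz2cre/+.Egr2fl/fl replicate 1. Its copy Gm8210 was at 38.2 TPM in Lyz2cre/+.Egr2fl/fl replicate 1 and at 0.61 to 2.33 TPM elsewhere. The 10 copies of Rpl29 together were lowest in that library, at 460 TPM against 513 to 630 TPM, as was the most abundant of them, Gm6344, at 322 TPM against 392 to 498 TPM. In the same library Gm10095, a copy of Rpl21, was at 292 TPM, against 0.775 to 2.81 TPM elsewhere, and Rpl21 itself was highest there, at 149 TPM. Over all 258 copies the sums were 8247, 8321 and 11007 TPM in Egr2fl/fl and 8445, 8816 and 8523 TPM in Lyz2cre/+.Egr2fl/fl libraries, and 95 copies were highest in Egr2fl/fl replicate 3. With the copies added, the members summed to 88680 ± 2480 TPM in Egr2fl/fl and 85343 ± 658 TPM in Lyz2cre/+.Egr2fl/fl (SD, n = 3 each), a ratio of 0.962. These sums join TPM over unlike gene lengths and do not count reads.

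**Figure D5:**
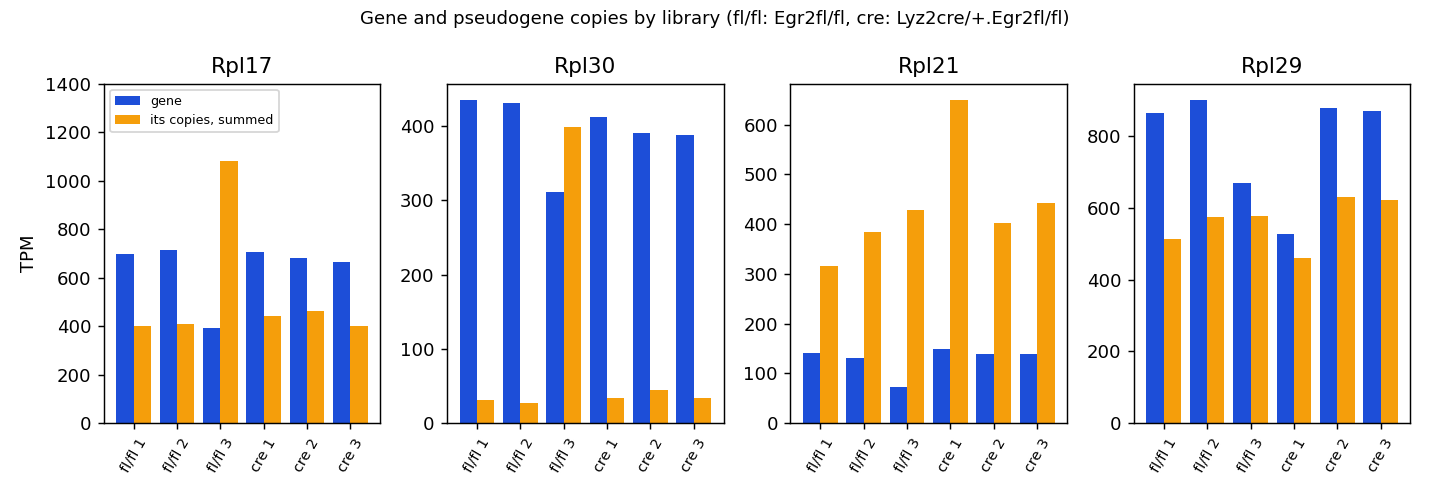
Bars give the TPM of Rpl17, Rpl30, Rpl21 and Rpl29 (blue) and the summed TPM of the pseudogene copies of each (yellow) in the 6 libraries. In Egr2fl/fl replicate 3 the copies of Rpl17 and Rpl30 reach 1082 and 398 TPM while the genes fall to 394 and 311 TPM.

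Other genes of the translation machinery showed few calls. Of all genes tested, 6.24% were called, 4.38% higher and 1.87% lower. Of 20 translation factors and other genes with TOP starts, 43 ribosome biogenesis genes and 11 snoRNA host genes, 0 passed in either direction in limma. At an unadjusted p below 0.05 were Taf1d of the biogenesis list (log2 difference -0.21) and Snhg8 (-0.39) and Snhg6 (-0.21) of the host genes. The medians of these 3 lists were -0.05, -0.01 and -0.13. The log2 difference was below 0 in 14 of the 20, 23 of the 43 and 11 of the 11 genes, against 5743 of the 13777 genes tested. Of 23 regulators, among them the mTORC1 subunits, LARP proteins, S6 kinases and Myc partners, 1 was higher. This was Max, the dimer partner of Myc, at 118, 116 and 112 TPM in Egr2fl/fl and at 133, 137 and 138 TPM in Lyz2cre/+.Egr2fl/fl libraries (log2 difference 0.24, adjusted p = 0.0364, limma). Eif4ebp1, which blocks the cap-binding factor until mTORC1 phosphorylates it, had a log2 difference of 0.30 and did not pass (adjusted p = 0.0672, limma).

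Markers of several cell types moved with the genotype beside these values. All 24 endothelial markers tested were higher in Lyz2cre/+.Egr2fl/fl, with sums of 187 to 218 TPM against 867 to 976 TPM, and so were 8 of 9 Kupffer cell markers, with sums of 2752 to 3260 TPM against 5765 to 7114 TPM. By flow cytometry and single-cell RNA sequencing, the paper reports few resident Kupffer cells in both genotypes on the diet. It ascribes the higher Kupffer cell markers to monocyte-derived macrophages rather than to more resident Kupffer cells. Of 14 macrophage markers 4 were higher and 1, Lyz2, lower, and their sums were 35926 to 39949 TPM and 35759 to 36142 TPM. Of the other marker lists, 1 of 18 hepatocyte, 1 of 7 lymphocyte, 0 of 6 neutrophil and 1 of 5 dendritic cell markers were higher and 1, 2, 2 and 0 lower, and of 16 immediate early and dissociation stress genes 0 were higher and 1 lower. Of the hepatocyte markers 17 of 18 had a log2 difference below 0 (median -0.48), with sums of 1124 to 1769 TPM in Egr2fl/fl and 1234 to 1438 TPM in Lyz2cre/+.Egr2fl/fl, and of the dendritic cell markers 5 of 5 were above 0 (median 0.34), with sums of 8.16 to 16.5 TPM and 19.4 to 27.9 TPM. The part of cell composition in the ribosomal protein values was not tested.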

How the data were processed

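Total RNA of sorted liver macrophages from 6 libraries was sequenced. The authors trimmed reads with Trimmomatic 0.39.0, aligned them to GRCm38 with HISAT2 2.2.1, removed duplicates, counted them per gene with featureCounts 2.0.1 and deposited TPM. TPM are relative, and a rise in some genes lowers the values of others. The library kit differs between labels and methods. Recovered reads were 6497770 to 8569062 per library, as lower bounds; all 13886 genes came out whole within 0.001 of a read.

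The main test was limma 3.58.1 (R 4.3.3, trend) on log2(TPM + 1), 2-sided, genes of mean TPM of at least 1, threshold 0.05. Fold changes on this scale understate those of low genes. Pseudogene copies were found with blastn 2.17.0. Each p-value sets the difference between the groups against the spread between these libraries within a group, adjusted by limma toward a trend over all genes. Members and lists were chosen with earlier results of these data known. Named were members past the threshold, the 6 most abundant, the 4 largest differences each way, second copies with partners, members with well known roles, and, of the other lists, called genes and up to 3 with the smallest p. Tests were tried on simulated data. Alternatives covered pseudocount, filter, scaling, variance model, replicate block, left-out libraries and copies, the last chosen after seeing the data. The list of ribosomal protein genes outside the symbol rule is not reported here.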

Additional observations from a re-analysis of the deposited data

How the results depend on the processing

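In every alternative run, 0 members were higher in Lyz2cre/+.Egr2fl/fl. The count of lower members, 1 as reported, was 2 (Rpl39 and Rps19) under quantile scaling, with voom on recovered reads and with each member counted together with its copies (chosen after seeing the data), 0 without the variance trend and at an adjusted p below 0.01, and 10 at an unadjusted p below 0.05. Leaving out each library in turn gave 0 to 1. The replicate numbers did not pair the libraries (same-number correlations of -0.03, 0.07 and -0.01); with the replicate block the count was 0, and the calls over all genes fell to 301 higher and 130 lower. Rpl39 passed in 12 of 19 alternatives, with log2 differences of -0.34 to -0.25 and adjusted p-values in limma of 0.0144 to 0.102, and Rps19 in 3 of 19. The members' median of -0.05 became -0.11 under median-of-ratios scaling (all genes -0.01), -0.085 with voom and -0.04 under quantile scaling, where that of all genes was -0.01 and the gap between them shrank from -0.09 to -0.03; without single libraries it was -0.08 to -0.04, and it stayed below 0 in every alternative run. The ratio of summed TPM, 0.966, became 0.930 under median-of-ratios scaling and 0.957 to 0.970 without single libraries. The large to small subunit ratio between groups, 1.00, ranged from 0.995 to 1.01 without single libraries. Of 681 values of named members, 25 changed sign, none of them past the threshold in either fit. The members' 95% intervals reached, in the median, 0.12 log2 units to either side.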
